A study of Mus musculus with 9 samples.

Results

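Retinoids, the derivatives of vitamin A, were followed in mouse oviduct through 9 genes that carry retinol, take it up, store it, turn it into retinoic acid, bind that acid and break it down. The genes were Rbp4, Stra6, Lrat, Aldh1a1, Aldh1a2, Aldh1a3, Crabp2, Cyp26a1 and Cyp26b1. They were chosen by symbol, each had 1 probe set with that symbol alone in the platform's annotation, and together they are 9 of 19937 genes so annotated on the array. RNA of whole oviduct, the tube between ovary and uterus, came from CD1 female mice without hormone treatment and was measured on 9 Affymetrix arrays. The groups were 3 arrays of sexually mature females in diestrus, the phase of the cycle under luteal progesterone, 3 of sexually mature females in estrus, the phase of ovulation and mating, and 3 of sexually immature females of day 21. The ages of the mature females were not given in the sources used here. Each array carried RNA of tissue pooled from 5 animals, so the p-values measure the spread between pools. The unit throughout is the log2 intensity after robust multi-array averaging (RMA).

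Retinol travels in blood on the carrier RBP4 and can enter cells through the membrane receptor STRA6. Inside the cell it is either stored as retinyl ester, made by lecithin:retinol acyltransferase (LRAT), or oxidised first to retinal and then, by the ALDH1A enzymes, to retinoic acid. Retinoic acid is handed by CRABP2 to nuclear receptors that bind DNA, and it is cleared by the cytochromes CYP26A1 and CYP26B1. Lrat and Cyp26a1 are both known as genes that retinoic acid itself can induce. In the female reproductive tract, retinoic acid is known for its part in epithelial differentiation and in the formation of the tract.

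Lrat and Cyp26a1, the genes for storage and for breakdown, had their lowest values of all 9 arrays on the 3 diestrus arrays. Lrat fell in diestrus against both immature and estrus oviduct. Cyp26a1 stood 0.70 below immature and 0.83 below estrus on the log2 scale, without passing the test over all probe sets. A gene is called here where limma's adjusted p over all probe sets was under 0.05. The 3 genes for retinoic acid synthesis showed no called difference in any comparison, and neither did Rbp4, Stra6, Crabp2 or Cyp26b1.

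Of the 9 genes, Lrat was the 1 called for diestrus minus estrus, where 0.159% of all probe sets were called, and again the 1 called for diestrus minus immature, where 1.00% were. For estrus minus immature, 0 of 9 were called by limma, against 0.0851% of all probe sets, and 1 of the 9 had an unadjusted p under 0.05 (Stra6), against 6.52% of all probe sets. With both mature stages averaged and set against immature oviduct, 0 of 9 were called by limma, against 0.432% of all probe sets, and 3 had an unadjusted p under 0.05, against 10.0%. At an unadjusted p under 0.05 there were 4 of the 9 for diestrus minus immature and 4 for diestrus minus estrus, against 13.4% and 9.33% of all probe sets. The arrays of the groups did not overlap in 4 of the 9 genes for diestrus minus immature (Lrat, Cyp26a1, Rbp4 and Stra6, all lower in diestrus), against 18.4% of all probe sets in either direction and 10.9% with diestrus lower. They did not overlap in 4 for diestrus minus estrus (Lrat, Cyp26a1 and Crabp2 lower, Aldh1a2 higher), against 11.8% of all probe sets in either direction and 6.85% with diestrus lower. In estrus minus immature they did not overlap in 2 (Aldh1a3 and Stra6, both lower), against 9.80% in either direction and 6.62% with estrus lower. The median difference of the 9 genes was -0.21 for diestrus minus immature, 0.01 for diestrus minus estrus and 0.01 for estrus minus immature, beside medians of 0.01, -0.01 and 0.01 over all probe sets.

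**Figure D1:**
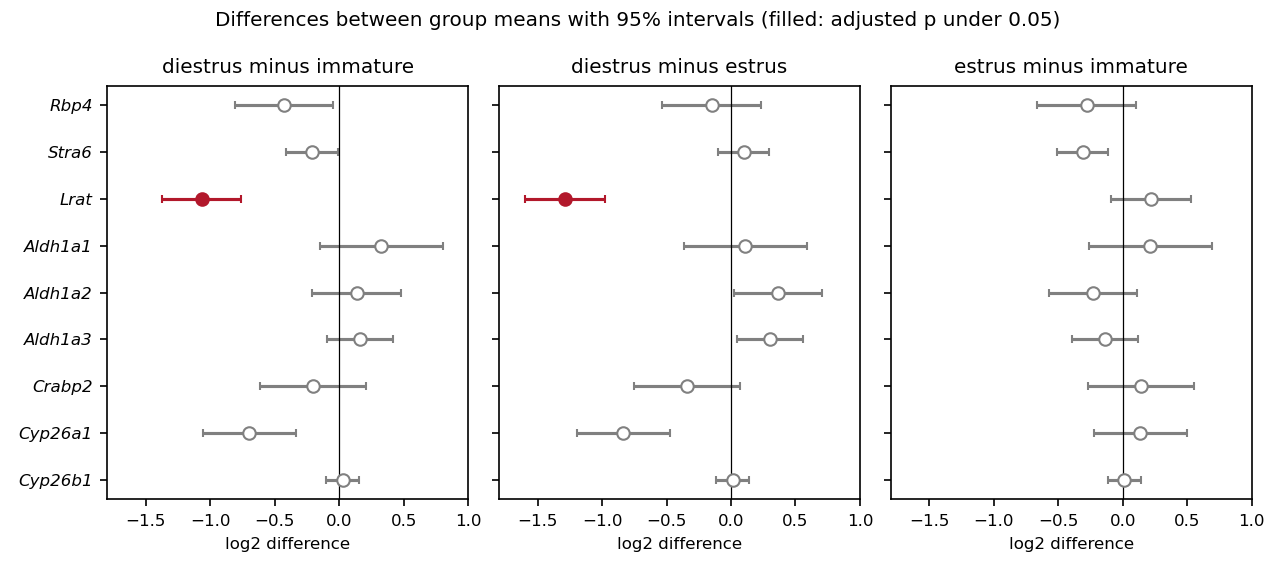
Differences between group means (log2) of the 9 genes with 95% intervals from limma, for diestrus minus immature, diestrus minus estrus and estrus minus immature; filled points had an adjusted p under 0.05. The 2 filled points are Lrat at -1.07 and -1.29, and the intervals of Cyp26a1 in both diestrus comparisons also lie wholly below 0. So do those of Rbp4 and Stra6 for diestrus minus immature and of Stra6 for estrus minus immature. The intervals of Aldh1a2 and Aldh1a3 for diestrus minus estrus lie wholly above 0.

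Whole-series checks bear on these values as follows. The medians of the 9 arrays lay between 8.85 and 8.90, over all probe sets the correlation was 0.992 to 0.996 within groups and 0.990 to 0.995 between groups, and no array was a copy of another. The label of oviduct was checked against epithelial markers: 5 measured genes of secretory epithelium, Pax8 and Epcam among them, averaged 11.15 to 11.46 on the 9 arrays, and 5 of ciliated epithelium, Foxj1 among them, 11.57 to 11.91. Of the secretory genes Muc16 was below the median of each array, and the other 4 were above it. Some arrays stood apart in genes of other tissues. The list of ovarian genes averaged 9.52 on diestrus 2, 9.09 on immature 2 and 8.58 on diestrus 3, against 7.85 to 8.06 on the other 6. On diestrus 3 the smooth muscle, stromal and posterior Hox lists were at their highest (12.25, 12.18 and 8.89, against at most 11.69, 11.64 and 8.33 elsewhere). The endothelium and macrophage lists were highest there too (9.76 and 8.87, against at most 9.41 and 8.58), and the mesothelium list was lowest (10.81). The fat cell list was highest on immature 1 with 8.97 and second on immature 2 with 8.69, while the other 7 arrays had 8.09 to 8.38. Results below are therefore also given without these arrays where that changed them. In RNA of a whole organ, fewer cells of a type and less RNA per cell cannot be told apart.

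**Figure D2:**
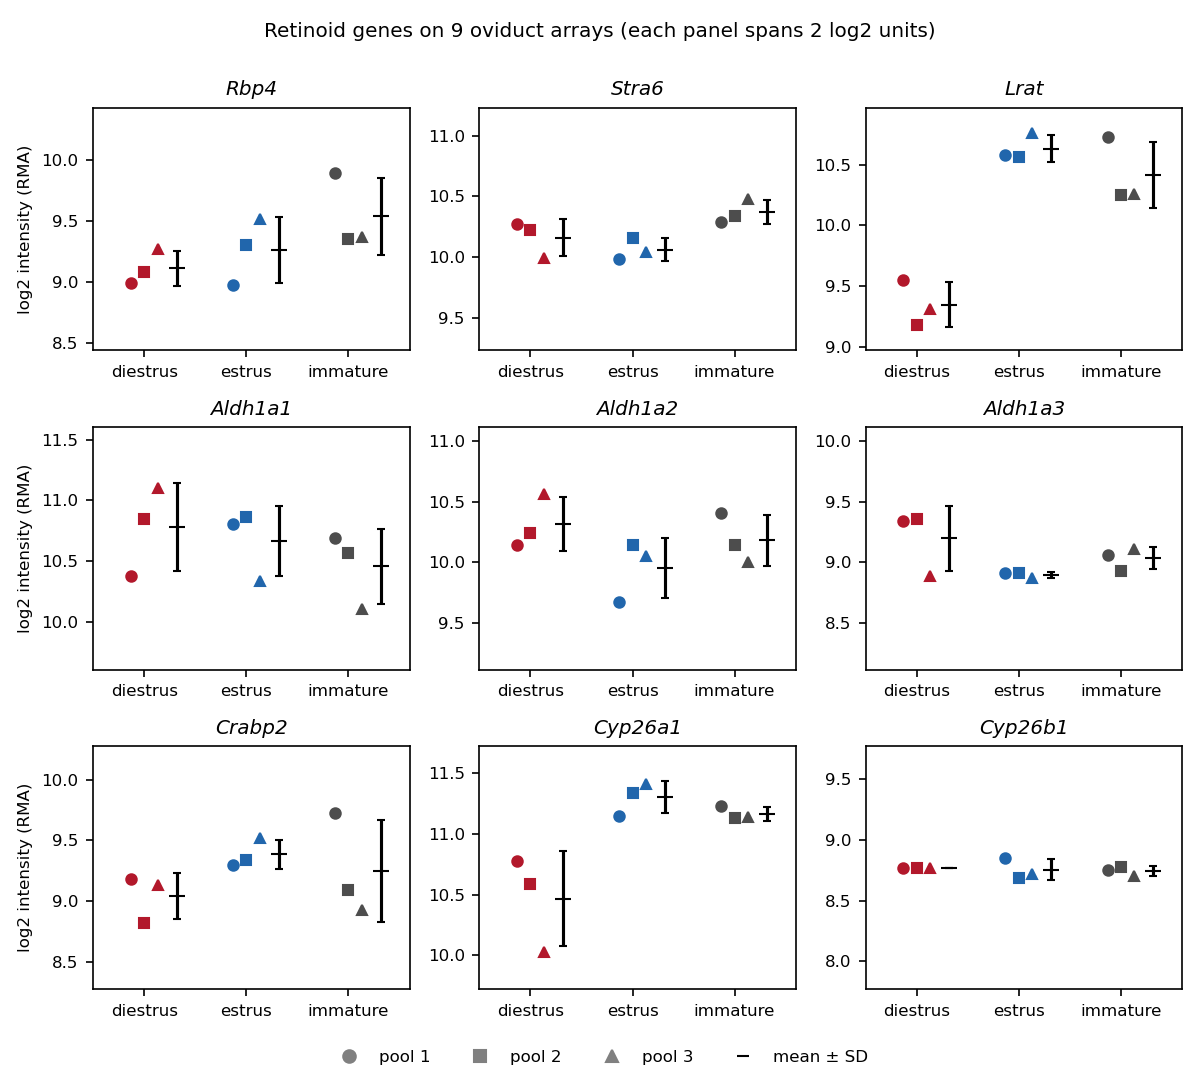
Log2 intensity of the 9 retinoid genes on each array, with the groups diestrus, estrus and immature from left to right, a marker for each pool, and the group mean ± SD (n = 3) beside the points; each panel spans 2 log2 units. Lrat (9.18 to 9.55 in diestrus) and Cyp26a1 (10.03 to 10.78 in diestrus) lie below all estrus and immature arrays, while Cyp26b1 keeps to 8.69 to 8.85 on all 9.

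Rbp4 encodes the retinol carrier of blood, which liver and fat cells make in quantity. It had 8.99, 9.08 and 9.27 in diestrus, 8.97, 9.30 and 9.52 in estrus and 9.90, 9.35 and 9.37 in immature oviduct. The diestrus arrays lay below the immature arrays, and the estrus arrays overlapped with both. Diestrus minus immature was -0.43 ± 0.17 (log2 difference ± SE, as throughout; limma adjusted p = 0.316), estrus minus immature -0.28 ± 0.17 (adjusted p = 0.843) and diestrus minus estrus -0.15 ± 0.17 (adjusted p = 0.931). The highest value, on immature 1, stood on the array with the highest fat cell list. Immature 1 was also second highest for the stromal, endothelium and posterior Hox lists (11.64, 9.41 and 8.33). The next highest Rbp4 value, 9.52 on estrus 3, stood with a fat cell list of 8.31. That list had 6 measured genes and averaged 8.09 to 8.38 in diestrus, 8.17 to 8.33 in estrus and 8.30 to 8.97 in immature oviduct, with Retn, the resistin gene, at 8.79 to 9.36 in diestrus, 9.21 to 9.31 in estrus and 9.38 to 10.76 in immature oviduct, while Adipoq, the adiponectin gene, was below the median of each array. Of that list, Retn, Fabp4, Adipoq and Cidec were highest on immature 1. Plin1 and Lep were not, with 9.02 and 7.33 there against 9.23 and 7.37 on immature 2. Without immature 1 the difference of Rbp4 from immature was -0.25 for diestrus and -0.096 for estrus, and the part of fat cells in these was not tested. With each array left out in turn, diestrus minus estrus ranged from -0.295 to -0.022, with the smallest size without estrus 3.

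Stra6, the receptor through which cells take retinol from RBP4, had 10.27, 10.22 and 9.99 in diestrus, 9.98, 10.16 and 10.04 in estrus and 10.29, 10.34 and 10.48 in immature oviduct. All 6 mature arrays lay below the 3 immature arrays, and diestrus and estrus overlapped. The arrays of both mature stages were apart from the immature arrays in 1 of the 9 genes, Stra6, against 4.58% of all probe sets in either direction and 3.18% with the mature arrays lower. Estrus minus immature was -0.31 ± 0.09 (95% interval -0.51 to -0.11, limma adjusted p = 0.447) and diestrus minus immature -0.21 ± 0.09 (adjusted p = 0.344). For the mean of both mature stages the difference was -0.26 ± 0.08 (adjusted p = 0.258). With array weights estrus minus immature passed the test at -0.32 (adjusted p = 0.0276), among 1023 calls of 28214 probe sets there, against 24 without weights. These weights were 8.16 for estrus 3 and 0.33 and 0.41 for the other estrus arrays, so the weighted estrus group is close to that 1 pool. Without diestrus 3 the difference of diestrus from immature was -0.125, and without the 3 arrays with high ovarian or muscle values it was -0.115.

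Lrat, the gene of the enzyme that stores retinol as ester, had the largest differences of the 9 in both diestrus comparisons. Its values were 9.55, 9.18 and 9.31 on the diestrus arrays, 10.58, 10.56 and 10.76 on the estrus arrays and 10.73, 10.25 and 10.26 on the immature arrays. All 3 diestrus arrays lay below all 6 others, and the estrus and immature arrays overlapped. The means were 9.35 ± 0.18 in diestrus, 10.63 ± 0.11 in estrus and 10.41 ± 0.27 in immature oviduct (SD, n = 3 each). Against estrus oviduct, diestrus Lrat fell by 1.29 ± 0.14 (95% interval -1.60 to -0.98), an intensity ratio of 0.41 (limma adjusted p = 0.0158). Against immature oviduct it fell by 1.07 ± 0.14 (95% interval -1.38 to -0.76), a ratio of 0.477 (limma adjusted p = 0.013). Among all 28214 probe sets, Lrat ranked 7 by p-value for diestrus minus estrus and 41 for diestrus minus immature. Estrus minus immature was 0.22 ± 0.14, with an adjusted p of 0.844, so the order of estrus and immature was not settled. Averaged over both mature stages, the difference from immature was -0.42 ± 0.12 (adjusted p = 0.23).

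Both comparisons with diestrus share the 3 diestrus arrays. The size of the Lrat difference held when arrays were left out, and its call did not always. Without diestrus 2, which has the highest ovarian values, diestrus minus immature was -0.98 (limma adjusted p = 0.0554) and diestrus minus estrus -1.21 (adjusted p = 0.0984). Without estrus 1, 2 and 3 in turn, diestrus minus estrus was -1.32, -1.32 and -1.22 with adjusted p of 0.082, 0.0504 and 0.0763. Leaving out immature 2, diestrus 2 and diestrus 3 together kept a single diestrus array, and the differences were then -0.95 from immature and -1.09 from estrus (adjusted p = 0.301 and 0.638); the lone diestrus array was taken to vary like the other groups. Without immature 1 and immature 2, the arrays with high fat cell values, diestrus minus immature was -0.92 (adjusted p = 0.216), with the single immature array left likewise taken to vary like the other groups.

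The 3 retinal dehydrogenase genes, whose enzymes carry out the step to retinoic acid, had no called difference. Aldh1a1 stood at 10.38, 10.85 and 11.10 in diestrus, 10.81, 10.86 and 10.34 in estrus and 10.69, 10.57 and 10.11 in immature oviduct. The 3 groups overlapped, and the SD within groups of 0.29 to 0.36 was close to the largest difference between them, 0.32 ± 0.21 for diestrus minus immature (adjusted p = 0.575) and 0.11 ± 0.21 for diestrus minus estrus (adjusted p = 0.977). Diestrus minus immature was 0.149 without immature 3, 0.162 without diestrus 3 and 0.522 without diestrus 1. Without diestrus 3, diestrus minus estrus turned to -0.05, and without estrus 3 to -0.055.

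Aldh1a2, known from stroma and mesothelium of the reproductive tract, stood at 10.14, 10.24 and 10.56 in diestrus, 9.67, 10.14 and 10.05 in estrus and 10.41, 10.14 and 10.00 in immature oviduct. The lowest diestrus array and the highest estrus array were both at 10.14, and diestrus minus estrus was 0.36 ± 0.15 (95% interval 0.02 to 0.71, limma adjusted p = 0.492). Its 2 highest values, on diestrus 3 and immature 1, stood on the arrays with the 2 highest averages of the stromal list, 12.18 and 11.64. That list, with 6 measured genes, averaged 11.22 to 12.18 in diestrus, 11.25 to 11.40 in estrus and 11.40 to 11.64 in immature oviduct. The mesothelium list was at its lowest of the 9 arrays on diestrus 3, 10.81, where Aldh1a2 was highest, and stood at 11.10 on immature 1. The same 2 arrays were also the highest for the endothelium list (9.76 and 9.41) and the posterior Hox list (8.89 and 8.33). The part of any of these lists in the Aldh1a2 values was not tested. Without diestrus 3 the difference of diestrus from estrus was 0.24, and without estrus 1 it was 0.22.

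Aldh1a3 stood at 9.34, 9.36 and 8.89 in diestrus, 8.91, 8.91 and 8.87 in estrus and 9.06, 8.93 and 9.11 in immature oviduct. Diestrus 1 and 2 were the highest of the 9 arrays, and diestrus 3 was among the estrus values. In estrus Aldh1a3 lay at percentiles 49.8 to 51.6 of all probe sets on its arrays, so its level was near the array median. Diestrus minus estrus was 0.30 ± 0.11 (95% interval 0.05 to 0.56, limma adjusted p = 0.419). Without diestrus 3 it was 0.45 and passed the test (adjusted p = 0.0439), and with array weights, which call 3331 probe sets in this comparison, it was 0.42 (adjusted p = 0.00657). Diestrus minus immature was 0.16 ± 0.11 (adjusted p = 0.6), and 0.32 without diestrus 3 (adjusted p = 0.0522).

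Crabp2, whose protein delivers retinoic acid to its nuclear receptors, stood at 9.18, 8.82 and 9.13 in diestrus, 9.30, 9.34 and 9.52 in estrus and 9.73, 9.09 and 8.93 in immature oviduct. The diestrus arrays lay below the estrus arrays, and immature 1 was the highest of the 9. In diestrus Crabp2 lay at percentiles 48.7 to 57.5 of all probe sets on its arrays, also near the array median. Diestrus minus estrus was -0.34 ± 0.18 (95% interval -0.76 to 0.07, limma adjusted p = 0.652), and among the 3331 calls with array weights it was -0.54 (adjusted p = 0.0378). Its SD in immature oviduct, 0.42, was the widest of any of the 9 genes in any group, and diestrus minus immature, -0.21 ± 0.18 (adjusted p = 0.698), turned to 0.035 without immature 1.

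Cyp26a1 encodes the cytochrome that oxidises retinoic acid for clearance, and it is widely used as a readout of retinoic acid signalling because a response element for the acid's receptors lies in its promoter. Its promoter and that of Lrat are shown because these 2 genes had the largest differences of diestrus from the other groups. Each is the 250 bases before the transcription start in RefSeq (build GRCm38.p6), read 5′ to 3′ on the gene's strand, at chr19:37697558-37697807 on the plus strand for Cyp26a1 and at chr3:82903975-82904224 on the minus strand for Lrat. Capitals mark a direct repeat of 2 receptor half-sites spaced by 5 bases.
Cyp26a1: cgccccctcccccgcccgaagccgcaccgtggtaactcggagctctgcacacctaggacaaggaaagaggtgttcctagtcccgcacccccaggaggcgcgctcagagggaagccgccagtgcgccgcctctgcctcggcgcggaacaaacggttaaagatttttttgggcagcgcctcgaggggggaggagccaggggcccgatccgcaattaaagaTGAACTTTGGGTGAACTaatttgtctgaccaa
Lrat: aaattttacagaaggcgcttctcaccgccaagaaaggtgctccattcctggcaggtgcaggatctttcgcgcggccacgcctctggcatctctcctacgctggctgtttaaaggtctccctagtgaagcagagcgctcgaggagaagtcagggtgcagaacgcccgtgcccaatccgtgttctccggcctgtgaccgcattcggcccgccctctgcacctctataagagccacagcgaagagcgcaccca
The half-sites searched were the form AGGTCA, the form AGTTCA, the form GGGTCA and the form GGTTCA, in pairs of the same orientation with 5 bases between them, on both strands. The repeat in the Cyp26a1 promoter lies on the minus strand at chr19:37697776-37697792, from 32 to 16 bases before the start. It reads there, with the half-sites in capitals:
Cyp26a1 repeat: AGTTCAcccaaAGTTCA
A pair of any of the 4 half-site forms with any 5 bases between them was found in 32 of 32851 promoter windows of RefSeq, 0.0974%, each from 250 bases before to 50 after a start. Of the 7 retinoid genes with a window, Cyp26a1 was the 1 that held such a pair. In Lrat, Cyp26b1, Aldh1a1, Aldh1a2, Rbp4 and Stra6 no such pair was in the windows, and the Lrat window held none of the 4 half-sites either, which 43.7% of all windows held at least once. Pairs with 1 or 2 bases between the half-sites were in none of the 12 windows of the 7 genes, against 0.222% and 0.268% of all windows. A match of letters does not show that a receptor binds.

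Cyp26a1 itself had 10.78, 10.59 and 10.03 on the diestrus arrays, 11.15, 11.34 and 11.41 on the estrus arrays and 11.23, 11.13 and 11.14 on the immature arrays. All 3 diestrus arrays were below all 6 others, with the lowest value on diestrus 3, and the estrus and immature arrays overlapped. The means were 10.47 ± 0.39 in diestrus, 11.30 ± 0.13 in estrus and 11.16 ± 0.06 in immature oviduct (SD, n = 3 each). Diestrus minus estrus was -0.83 ± 0.16 (95% interval -1.20 to -0.47, a ratio of 0.561) and diestrus minus immature -0.70 ± 0.16 (95% interval -1.06 to -0.34, a ratio of 0.616). Neither passed the test over all probe sets (limma adjusted p = 0.091 and 0.0864, unadjusted p = 0.000473 and 0.00162). Estrus minus immature was 0.14 ± 0.16 (adjusted p = 0.889).

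The lowest Cyp26a1 value stood on diestrus 3, where the secretory epithelium list was also at its lowest, 11.15 against 11.30 to 11.46 elsewhere. In that list Muc16 had 7.34 on diestrus 3, against 8.10 and 8.05 on diestrus 1 and 2, and Pax8 had 11.76, against 12.18 and 12.13. Epcam and Cdh1 moved less, with 11.62 against 11.73 and 11.72 for Epcam and 12.12 against 12.22 and 12.30 for Cdh1, and Krt8, at 12.92 on diestrus 3, was lower on estrus 2 and estrus 3 (12.85 and 12.86). On diestrus 3 the mesothelium list was also lowest (10.81), and the smooth muscle, stromal, endothelium, macrophage and posterior Hox lists were highest. The part of any of these in the Cyp26a1 value was not tested. Without diestrus 3 the differences were smaller, -0.62 from estrus and -0.48 from immature, and both passed the test (limma adjusted p = 0.0439 and 0.0402); without that array 105 and 533 of all probe sets were called, against 45 and 282 with it. On the other diestrus arrays the secretory list stood at 11.45 and 11.46, the highest values of the 9, while Cyp26a1 was at 10.78 and 10.59. Without immature 2, diestrus 2 and diestrus 3 together, the differences were -0.52 from estrus and -0.41 from immature (adjusted p = 0.698 and 0.461). With diestrus 3 kept, the difference from estrus was also called when only probe sets with a mean above the median were tested (adjusted p = 0.0459), and with array weights both were, at -0.81 from estrus (adjusted p = 0.00187) and -0.59 from immature (adjusted p = 0.0303), among 3331 and 1288 calls over all probe sets.

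Cyp26b1, the related cytochrome, ranged from 8.77 to 8.77 in diestrus, 8.69 to 8.85 in estrus and 8.70 to 8.78 in immature oviduct. On all 9 arrays it was under the array's median, so that a signal above background was not established. The 95% interval of diestrus minus estrus was -0.12 to 0.14, that of diestrus minus immature -0.10 to 0.15 and that of estrus minus immature -0.11 to 0.14. A further gene of the family, outside the 9, was Cyp26c1, which differed by at most 0.09 ± 0.08 (diestrus minus immature) and was likewise below the median of each array.

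**Figure D3:**
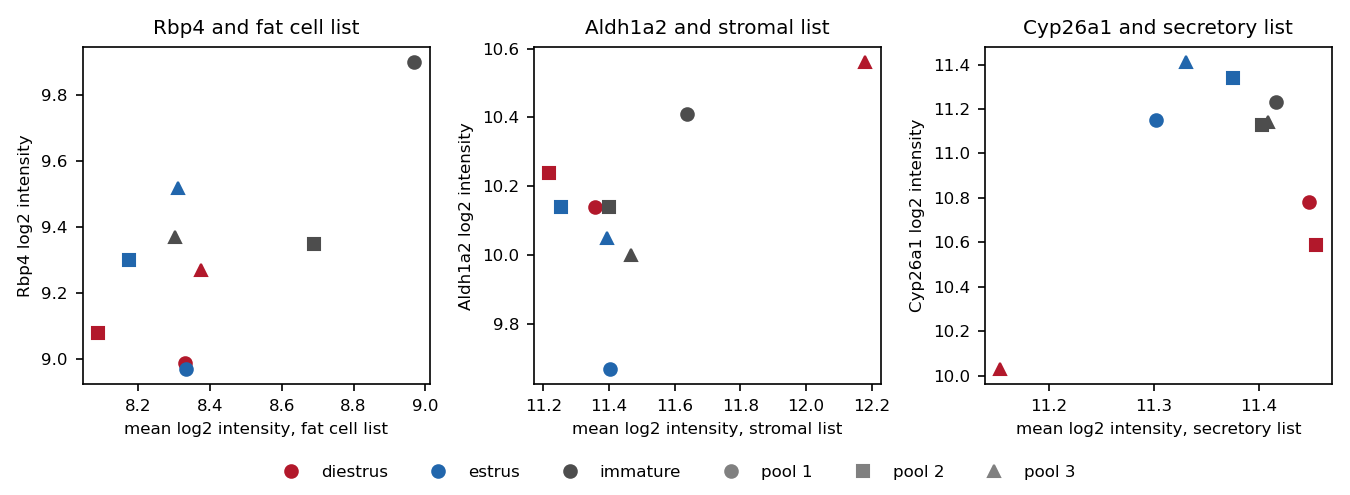
Log2 intensity of Rbp4, Aldh1a2 and Cyp26a1 (vertical axes) against the mean log2 intensity of the fat cell, stromal and secretory epithelium lists (horizontal axes), 1 point per array, with colour for the group and shape for the pool. Rbp4 is highest at 9.90 on immature 1, where the fat cell list is at 8.97, Aldh1a2 is highest at 10.56 on diestrus 3, where the stromal list is at 12.18, and Cyp26a1 is lowest at 10.03 on diestrus 3, where the secretory list is at 11.15. Diestrus 3 and immature 1 are also the highest and second highest arrays for the endothelium and posterior Hox lists, which are not shown.

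Over the 9 genes, immature 1 had the highest value of the immature group in Lrat, Cyp26a1, Rbp4, Crabp2, Aldh1a1 and Aldh1a2. The mean log2 intensity of the 9 genes was 9.67 to 9.71 in diestrus and 9.80 to 9.92 in estrus, against 10.09 on immature 1 and 9.79 and 9.84 on the other immature arrays. These means do not describe each gene. Against estrus, 5 of the 9 had a higher and 4 a lower mean in diestrus, with the largest differences in Lrat (-1.29) and Cyp26a1 (-0.83).

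The rest of the pathway was read from a list of 66 genes ordered by role, 64 of them measured and 55 of these outside the 9. Of the 55, 1 rose and 1 fell for diestrus minus immature, 1 rose and 0 fell for diestrus minus estrus, and 0 were called for estrus minus immature by limma. In these comparisons 1.00%, 0.159% and 0.0851% of all probe sets were called. At an unadjusted p under 0.05 there were 12 of the 55 for diestrus minus immature, 10 for diestrus minus estrus and 6 for estrus minus immature, against 13.4%, 9.33% and 6.52% of all probe sets. The median difference of the 55 was 0.02 for diestrus minus immature, 0.00 for diestrus minus estrus and 0.01 for estrus minus immature. The gene that fell was Fabp5, by the probe set with the higher mean of its 2. Fabp5 encodes a fatty acid binding protein that can also carry retinoic acid. It had 9.80, 9.82 and 9.36 in diestrus, 10.15, 10.13 and 10.42 in estrus and 10.83, 10.31 and 10.53 in immature oviduct. It fell by 0.90 ± 0.16 in diestrus against immature (limma adjusted p = 0.0362), and its other probe set gave -0.73 ± 0.14 (adjusted p = 0.0536). The call of Fabp5 was lost without any 1 of the 9 arrays except diestrus 3, at differences of -1.02 to -0.76 and adjusted p of 0.0502 to 0.119. Near-identical copies of Fabp5 elsewhere in the genome can share its probes. The called probe set may measure such a copy, so the call of Fabp5 itself is uncertain. The gene that rose was Ccn2, a matrix-associated signalling protein gene that also answers to other stimuli than retinoic acid. It had 10.81, 10.87 and 10.84 in diestrus, 10.16, 10.30 and 10.19 in estrus and 10.25, 10.11 and 10.19 in immature oviduct, and rose by 0.66 ± 0.06 against immature and by 0.63 ± 0.06 against estrus (limma adjusted p = 0.00272 and 0.0135). The second of these calls was lost without diestrus 2, estrus 1 and estrus 3 in turn (adjusted p = 0.085, 0.082 and 0.0763). With both mature stages averaged, Ccn2 was the 1 of the 55 called, against 0.432% of all probe sets. Its difference was 0.35 ± 0.05 (limma adjusted p = 0.0252), a call kept in 3 of 9 fits with 1 array left out (adjusted p = 0.0257 to 0.142). Estrus minus immature of Ccn2 was 0.03 ± 0.06 (adjusted p = 0.924).

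Most steps of the pathway had no called gene. Of 20 genes for the exchange between retinol and retinal and for carotene cleavage, 0 were called by limma in any comparison, with 3 at an unadjusted p under 0.05 for diestrus minus immature, 3 for diestrus minus estrus and 2 for estrus minus immature, against 13.4%, 9.33% and 6.52% of all probe sets. Adh7, an alcohol dehydrogenase active on retinol, differed by 0.38 ± 0.09 between diestrus and estrus (adjusted p = 0.147), and Dhrs9, a retinol dehydrogenase gene, by 0.17 ± 0.05 (adjusted p = 0.277). Of the 7 nuclear receptor genes 0 were called by limma, and 1 had an unadjusted p under 0.05 for diestrus minus immature, against 13.4% of all probe sets. That was Rara, the retinoic acid receptor alpha gene, at -0.17 ± 0.07 (adjusted p = 0.321), while in that comparison Rarg differed by 0.03 ± 0.07 and Ppard, a fatty acid receptor gene, by -0.02 ± 0.06. Among carriers, Rbp2, a retinol-binding protein gene best known from intestine, had 9.00, 9.28 and 8.90 in diestrus, 9.07, 9.02 and 9.11 in estrus and 9.67, 9.34 and 9.81 in immature oviduct. All 6 mature arrays of Rbp2 lay below the 3 immature arrays, with a difference of -0.55 ± 0.12 in diestrus and -0.54 ± 0.12 in estrus (adjusted p = 0.0837 and 0.249). Crabp1, a second retinoic acid binding protein gene, differed by -0.40 ± 0.14 between diestrus and immature (adjusted p = 0.238). In the storage list of 8 genes, Lrat was the 1 called, and Ces1d, a carboxylesterase gene, differed by 0.43 ± 0.15 between diestrus and immature (adjusted p = 0.257). In the same comparison Pnpla2, the main lipase gene of lipid droplets, differed by -0.10 ± 0.06, and Lpl, the lipoprotein lipase gene, by -0.24 ± 0.14 (adjusted p = 0.54 and 0.522). Lrp2, a receptor that takes up retinol carriers in kidney, had 10.23, 9.79 and 8.90 in diestrus, a spread that left its difference from immature at 0.31 ± 0.32 (adjusted p = 0.739). Adh1, a further alcohol dehydrogenase gene, differed by 0.03 ± 0.21, and Aldh8a1, a dehydrogenase gene with activity on retinal, by 0.01 ± 0.06 (adjusted p = 0.974 and 0.978). Of 18 measured genes listed as responding to retinoic acid, 9 had a higher and 9 a lower mean in diestrus than in immature oviduct. Lrat, Cyp26a1, Cyp26b1, Stra6 and Crabp2 are on that list. By limma 1 in each direction was called (Ccn2 higher, Lrat lower), against 1.00% of all probe sets called. At an unadjusted p under 0.05 there were 7 of the 18, against 13.4% of all probe sets. Lrat, Cyp26a1, Stra6 and Nrip1 were lower, and Ccn2, Tgm2 and Rarres1 higher. Meis1 and Meis2, homeobox genes that retinoic acid can induce in the embryo, differed there by -0.01 ± 0.06 and 0.02 ± 0.05, and Tgm2, the transglutaminase gene long known as a target, by 0.26 ± 0.11 (adjusted p = 0.358). For diestrus minus estrus, 11 of the 18 had a higher and 7 a lower mean. Lrat and Ccn2 were called, against 0.159% of all probe sets. At an unadjusted p under 0.05 there were 8, against 9.33% of all probe sets. Lrat, Cyp26a1 and Nrip1 were lower, and Ccn2, Tgm2, Rarres1, Rarres2 and Tshz1 higher. Nrip1 differed by -0.22 ± 0.06, Rarres2 by 0.40 ± 0.13 and Tgm2 by 0.32 ± 0.11. Tshz1 differed by 0.28 ± 0.09, and Rarres1, below the median of each array, by 0.29 ± 0.13. Adjusted p by limma was 0.219 to 0.518 for Nrip1, Rarres1, Rarres2, Tgm2 and Tshz1. Rarb, the retinoic acid receptor beta gene, differed in diestrus by -0.04 ± 0.08 from immature and -0.02 ± 0.08 from estrus. Dhrs3, also on that list, differed by 0.10 ± 0.10 and 0.19 ± 0.10 (limma adjusted p = 0.736 and 0.631).

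**Figure D4:**
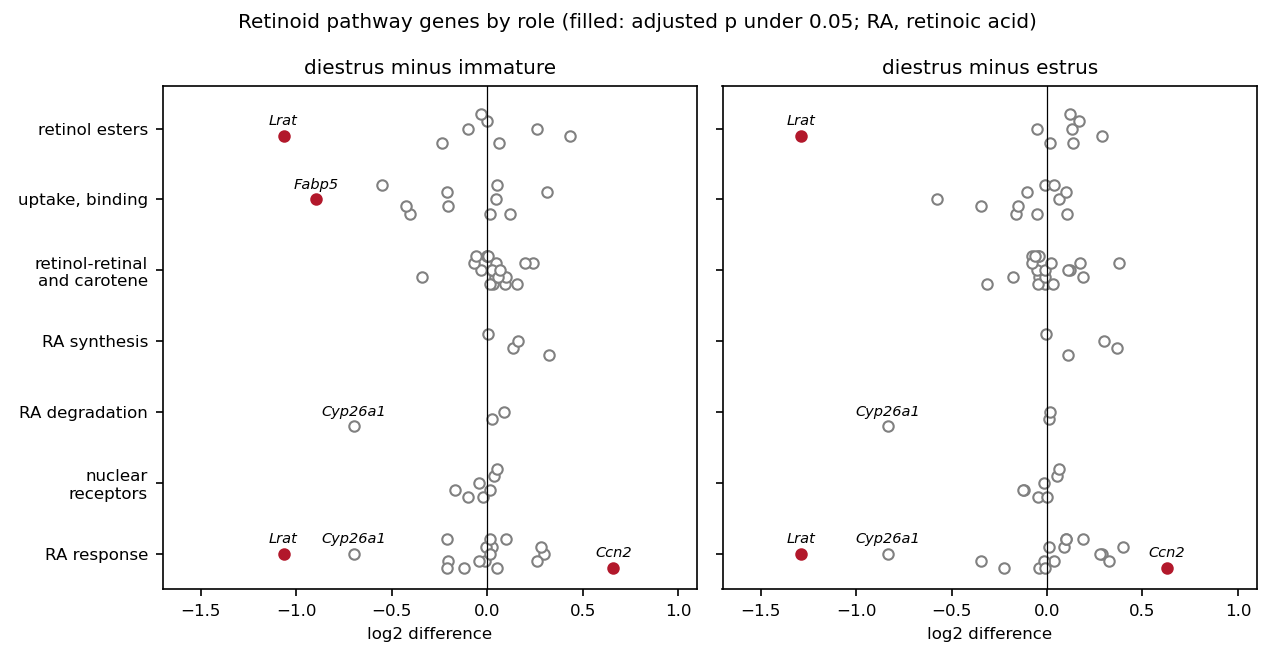
Log2 differences of the 64 measured retinoid pathway genes by role, for diestrus minus immature on the left and diestrus minus estrus on the right, 1 point per gene and list, filled where the limma adjusted p was under 0.05; genes in 2 lists appear in both. Lrat at -1.07 and -1.29, Fabp5 at -0.90 on the left and Ccn2 at 0.66 and 0.63 are the filled points, and Cyp26a1 is the point at -0.70 and -0.83.

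The 5 genes whose values over the 9 arrays lay nearest to those of Lrat were Ptgs2, Rasd1, Syn2, Gcnt4 and Akr1c14. Nearness was the root mean square of the differences in log2 values after each gene's own mean was taken off, 0.19 for Ptgs2, 0.22 for Rasd1, 0.23 for Syn2 and 0.25 for both Gcnt4 and Akr1c14, where the median over all named genes was 0.59 and the root mean square of Lrat about its own mean 0.59. Being chosen for their likeness to Lrat, they have no test of that likeness. Ptgs2, the inducible cyclooxygenase gene of prostaglandin synthesis, averaged 9.44 ± 0.22 in diestrus, 10.58 ± 0.22 in estrus and 10.28 ± 0.26 in immature oviduct (SD, n = 3 each). Akr1c14, which encodes a hydroxysteroid dehydrogenase, averaged 10.75 ± 0.45 in diestrus, 11.74 ± 0.22 in estrus and 11.57 ± 0.26 in immature oviduct. In all 5 genes the 3 diestrus arrays lay below the 6 others, as in Lrat, which follows largely from how these genes were chosen.

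**Figure D5:**
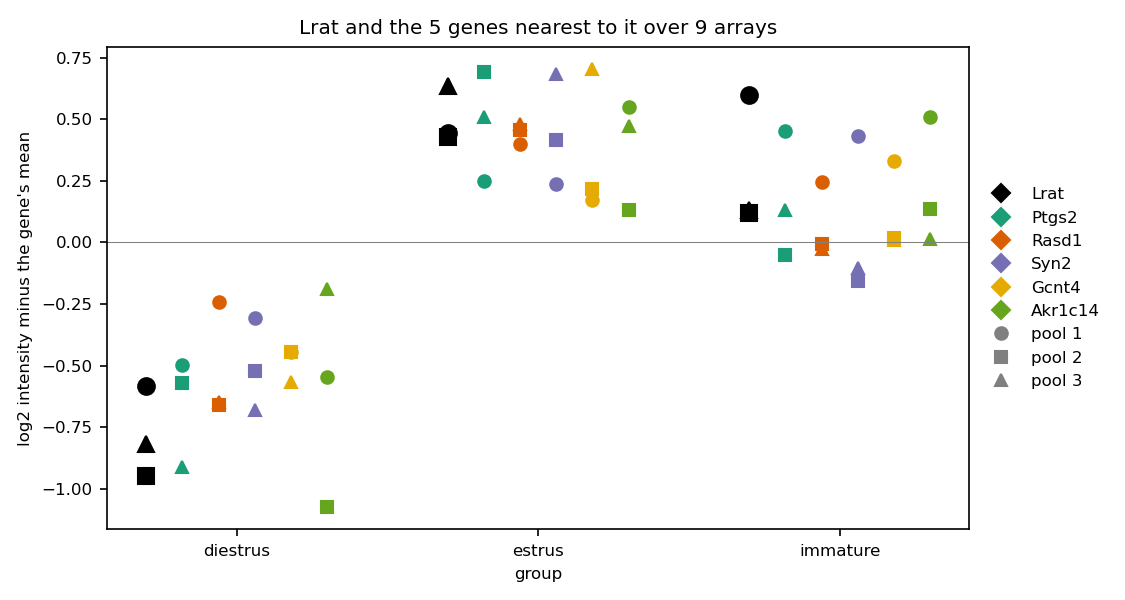
Log2 intensity of Lrat and its 5 nearest genes after each gene's own mean over the 9 arrays was taken off, in diestrus, estrus and immature oviduct, with colour for the gene and shape for the pool. All points of diestrus lie below 0 for the 6 genes, and Lrat ranges there from -0.95 to -0.59.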

How the data were processed

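RNA of whole oviduct was measured on 9 Affymetrix arrays, 3 per group, each of tissue pooled from 5 animals. The authors deposited log2 intensities per probe set, made with RMA in Affymetrix Expression Console per the submitters' processing notes; versions, log base (taken as 2 from the values) and genome build were not given in the sources used here. RMA shares its background model and quantiles among all arrays, so differences are relative to the whole array. No detection calls were used. Of 28214 probe sets, 21640 had 1 symbol in the platform's annotation, 1321 several and 5253 none; only probe sets with 1 symbol were named. Where a gene had several, the probe set with the highest mean stands for it, and a further one is given where it disagreed.

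A 3-group model was fitted to all probe sets with limma 3.58.1 (eBayes) in R 4.3.3, with 4 contrasts, Benjamini-Hochberg adjustment over all probe sets and an adjusted p under 0.05 as the call. The p-values measure the spread between pools (6 residual and 3.60 prior degrees of freedom). Precision is set by the few arrays, with a median SE of 0.076 for a group difference. On simulated data of the same size, the fit for diestrus minus immature recovered 52 of 67 changes of 1.5-fold and 63 of 67 of 2-fold. Those changes were planted in probe sets drawn at random, with independent noise and no tissue differences between arrays. The SE of the 9 genes in that comparison was 0.057 to 0.213, so these counts do not give the recovery for them.

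The members, the pathway and marker lists and the tests were chosen with earlier results of these data known. Besides the members, the pathway genes named are those called and, in each role, up to 3 others with the highest mean, and the 5 genes nearest to each called member, without predicted gene models, olfactory, vomeronasal and taste receptors and small RNAs. Rarb and Dhrs3, retinoic acid response genes outside this rule, are named as well. So are Nrip1, Rarres1, Rarres2 and Tshz1 of that list, for their unadjusted p under 0.05 for diestrus minus estrus. Promoters came from RefSeq (GRCm38.p6); Aldh1a3 and Crabp2 were not analysed there. Alternatives were other normalisations, filters, array weights, stricter thresholds, a replicate block and left-out arrays.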

Additional observations from a re-analysis of the deposited data

How the results depend on the processing

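Lrat kept its direction under all 23 alternatives and was called in 18 of them for diestrus minus immature (-1.17 to -0.91) and in 15 for diestrus minus estrus (-1.44 to -1.09). The number of the 9 genes called, 1 for diestrus minus immature, was 2 with array weights and 0 with only the arrays of the groups compared (Lrat, adjusted p = 0.0641), with an adjusted p under 0.01, without the 3 arrays with high ovarian or muscle values and without the 2 with high fat cell values. It ranged from 0 to 2 with each array left out in turn, 0 without diestrus 2 and 2 without diestrus 3. For diestrus minus estrus, also 1, it was 2 with only probe sets above the median and 4 with array weights (Lrat, Cyp26a1, Aldh1a3 and Crabp2), where 3331 of all probe sets were called and estrus 3 had a weight of 8.16 against 0.33 and 0.41 for the other estrus arrays, and it was 0 with only the groups compared (Lrat, adjusted p = 0.076), with an adjusted p under 0.01 and without either set of doubted arrays. It ranged from 0 to 3 with each array left out in turn, 0 without diestrus 2, estrus 1, estrus 2 or estrus 3 and 3 without diestrus 3. For estrus minus immature it was 0, and 1 (Stra6) with array weights. Some of these fits had fewer arrays, and the cause of the changes was not tested.

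Deviations from the group means correlated at -0.29 to 0.17 between arrays of 1 number in the titles and at -0.26 to 0.29 between others. These ranges overlap, so they show no pairing by number and cannot exclude it. With the replicate block, 1 of the 9 genes, Lrat, was called in each comparison of diestrus and 0 in estrus minus immature and in the mature mean minus immature, and the calls over all probe sets numbered 4 for estrus against immature, 121 and 13 for diestrus against immature and against estrus, and 44 for the mature mean. Without the block the same 4 counts were 24, 282, 45 and 122. They ranged from 1 to 95, 41 to 533, 1 to 105 and 14 to 300 with each array left out in turn, and from 2 to 1023, 3 to 1288, 0 to 3331 and 3 to 578 under the other alternatives.

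Of 815 values of single genes under alternatives, 30 changed sign, none of them called in either setting. With each array left out in turn, Cyp26b1 ranged from -0.035 to 0.044 for estrus minus immature, -0.019 to 0.061 for diestrus minus estrus and -0.005 to 0.038 for the mature mean minus immature. Aldh1a1 ranged from -0.055 to 0.309 for diestrus minus estrus. The mature mean minus immature ranged from -0.141 to 0.066 for Aldh1a2, -0.038 to 0.089 for Aldh1a3 and -0.192 to 0.207 for Crabp2. Crabp2 also ranged from -0.02 to 0.379 for estrus minus immature and -0.364 to 0.035 for diestrus minus immature. For Cyp26b1, estrus minus immature turned to -0.003 with repeated quantile normalisation, -0.005 with cyclic loess and -0.02 with array weights, and the first of these also gave -0.001 for diestrus minus immature and -0.002 for the mature mean. Aldh1a1 turned to -0.127 for estrus minus immature with array weights. Without the arrays with high ovarian or muscle values, Aldh1a1 was -0.016 for diestrus minus immature and -0.286 for diestrus minus estrus, and Aldh1a2 -0.066 for diestrus minus immature. Without the fat cell arrays, the mature mean minus immature was 0.136 for Aldh1a2, -0.061 for Aldh1a3 and 0.285 for Crabp2, and Crabp2 was 0.113 for diestrus minus immature. Cyp26b1 had no value with only probe sets above the median, and the mature mean uses all arrays, so no smaller fit was made for it. With no detection values used here, differences of genes below the array median, such as Cyp26b1, could be limited by background signal. The same holds for genes near the median in a group, such as Aldh1a3 and Crabp2.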
